A study of Mus musculus with 24 samples.

Results

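The miR-26 and miR-101 families are microRNAs (miRNAs, short RNAs that lower the output of messenger RNAs) that are made by most cell types and are abundant in liver. The members described here are the 7 mature products mmu-miR-26a-5p, mmu-miR-26b-5p, mmu-miR-26a-1-3p, mmu-miR-26a-2-3p, mmu-miR-26b-3p, mmu-miR-101a-3p and mmu-miR-101b-3p, picked by name from a table of 1908 mature mouse miRNAs and written below without the species prefix. They were counted by small RNA sequencing in 24 liver samples of C57Bl/6J mice. The 8 AM132 samples came from mice made obese by 11 weeks of high fat diet and injected intravenously on 3 days with 3.3 mg/kg of a 16-mer of locked nucleic acid (LNA, a chemically stiffened oligonucleotide) complementary to miR-132. The 8 AM608 samples came from mice on the same diet, given the same dose of a 15-mer LNA against miR-608, a primate miRNA for which mice have no predicted match. Livers of both injected groups were taken 7 days after treatment. The 8 RCD samples came from lean mice of the same age on regular chow, for which no injection is described. Every obese mouse received an oligonucleotide, so a difference of AM132 from AM608 can come from either one, and diet and injection cannot be told apart in any comparison with RCD.

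A miRNA precursor is a hairpin from which Dicer cuts a short duplex. One strand, the guide, is kept in an Argonaute protein and acts on messenger RNAs that pair with its seed (bases 2 to 8), while the other strand, the passenger, is mostly degraded. miR-26 and miR-101 are known as brakes on growth in hepatocytes: both are reported as reduced in liver tumours, both target the messenger RNA of Ezh2, a histone methyltransferase, and miR-26a also targets those of D- and E-type cyclins. miR-26a has in addition been described in mice as a regulator of hepatic insulin sensitivity and of glucose and lipid metabolism. The libraries hold no messenger RNA, so neither growth nor the targets were measured.

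The mature guides are shown first, because their seeds define which members share targets. Each is written 5′ to 3′ from RefSeq (GRCm38.p6) with the seed in capitals.
miR-26a-5p: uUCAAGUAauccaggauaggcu
miR-26b-5p: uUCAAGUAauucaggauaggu
miR-101a-3p: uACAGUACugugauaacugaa
miR-101b-3p: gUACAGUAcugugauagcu
The 2 miR-26 guides have the same seed, UCAAGUA, which pairs with UACUUGA in a target. Counted from the 5′ end, they differ at C11U and C21U, and miR-26a-5p is 22 bases long against 21 for miR-26b-5p. A read of either that stops before base 21 can be assigned by base 11 alone. The annotated start of miR-101b-3p lies 1 base before that of miR-101a-3p, so the annotated seeds differ by this shift (UACAGUA and ACAGUAC). Over the 18 bases they share, the miR-101 guides differ once, at A16G of miR-101a-3p. miR-101c, which is no member, is 19 bases long and lies wholly within miR-101a-3p, so its reads cannot be told apart by sequence from shortened reads of miR-101a-3p. miR-101c had 16 to 46 counts per AM132 library, 26 to 34 per AM608 library and 20 to 45 per RCD library, against 12245 or more for miR-101a-3p in every library.

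The passenger strands of miR-26 are shown because they tell the 2 miR-26a loci apart, which the guide cannot do.
miR-26a-1-3p: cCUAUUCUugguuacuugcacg
miR-26a-2-3p: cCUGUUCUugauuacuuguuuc
miR-26b-3p: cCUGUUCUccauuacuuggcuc
miR-26a-2-3p and miR-26b-3p share the seed CUGUUCU, and miR-26a-1-3p has CUAUUCU. The 2 passengers of miR-26a differ at 6 of 22 bases, first at A4G. The hairpins, with both arms in capitals, show the same guide arm at both miR-26a loci and unlike passenger arms.
Mir26a-1 hairpin: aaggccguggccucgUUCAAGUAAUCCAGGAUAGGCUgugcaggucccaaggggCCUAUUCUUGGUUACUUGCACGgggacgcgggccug
Mir26a-2 hairpin: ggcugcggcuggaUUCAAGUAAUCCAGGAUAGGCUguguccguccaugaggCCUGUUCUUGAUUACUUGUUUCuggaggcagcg

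In GRCm38, Mir26a-1 (chr9:119031796-119031885, plus strand) lies in an intron of Ctdspl. Mir26a-2 (chr10:126995530-126995613, plus strand) lies in Ctdsp2, where GENCODE M21 also has transcripts with an exon over it. Mir26b (chr1:74394310-74394394, plus strand) lies in an intron of Ctdsp1. All 3 host genes encode small phosphatases of the RNA polymerase II C-terminal domain, so each miR-26 locus sits in a gene of the same family. Mir101b (chr19:29135279-29135375, plus strand) lies in an intron of Rcl1, which encodes a ribosomal RNA processing factor. Mir101a (chr4:101346945-101347027, minus strand) overlaps an exon of the long non-coding gene E130102H24Rik.

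Libraries held 5689143 to 8734721 miRNA counts. The target of the AM132 oligonucleotide, miR-132-3p, had 0 counts in 8 of 8 AM132 libraries, against 92 to 341 counts per AM608 library and 69 to 339 per RCD library. The sum of 7 hepatocyte marker miRNAs, led by miR-122-5p, was 494314 to 634508 CPM (counts-per-million, scaled by trimmed mean of M values, TMM, factors) among AM132 libraries, 323082 to 498931 among AM608 libraries and 263360 to 542414 among RCD libraries. RCD library 3 stood apart: it had the lowest hepatocyte sum, and its 7 neuronal markers summed to 874 CPM, against 79.8 CPM in the next RCD library and at most 41.3 CPM in the injected groups. Its leukocyte (1006 CPM), muscle (331.3 CPM), erythroid (1773 CPM) and mesenchymal (25387 CPM) sums were the highest of RCD as well. It had the lowest TMM-scaled CPM of the RCD group in all 6 members that passed the filter on low counts. Its TMM factor was the highest of all libraries (1.34), which lowers its CPM. As a share of counts, RCD 3 (321352 of 7170131) exceeded RCD 5 (241320 of 6982213) for miR-26a-5p. For miR-101b-3p, RCD 3 was the lowest of RCD by share as well (0.599%). Fold changes of members relative to RCD are given with and without RCD 3. In bulk tissue, fewer cells of a type and less RNA per cell cannot be told apart. The labels do not tie each sample to an animal of its own, so a p-value here reflects only how much these samples vary.

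In read counts the guides held nearly all of the signal. miR-26a-5p was the 8th most abundant of the 421 miRNAs tested, at a mean of 37329 CPM over the 24 libraries. miR-101b-3p and miR-26b-5p followed at 8616 and 8603 CPM (positions 21 and 22), and miR-101a-3p at 2410 CPM (position 37). The middle 2 were not told apart, as miR-101b-3p exceeded miR-26b-5p in 12 of 24 libraries. The passengers miR-26a-2-3p and miR-26b-3p came far lower, at 17.6 and 11.4 CPM, and miR-26a-1-3p was at the edge of detection. The 7 members together took 4.91 to 6.09% of all miRNA counts among AM132 libraries, 5.48 to 5.78% among AM608 libraries and 5.18 to 7.70% among RCD libraries. Adapter ligation favours some ends over others, so this is an order of reads and only roughly one of molecules.

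miR-26a-5p, the main guide of the family, was lower in obese mice given the control oligonucleotide (AM608) than in lean mice. Its level spanned 34956 to 43176 CPM among AM132 libraries (median 38607), from 30457 to 37494 in AM608 (median 33006) and from 33595 to 44117 in RCD (median 41195). All 3 groups overlapped, though 5 of 8 AM608 libraries lay below every RCD library and 5 of 8 AM132 libraries above every AM608 library. AM132 averaged 38524 ± 2946 CPM, AM608 33634 ± 2462 CPM and RCD 39829 ± 3694 CPM (SD, n = 8 each). Relative to RCD, AM608 livers had less miR-26a-5p, which fell by 0.24 on the log2 scale (SE 0.0638, fold 0.844, edgeR adjusted p = 0.00483, adjusted over all 421 miRNAs). The call was kept in all 33 alternatives run, and without RCD library 3 the log2 fold change was −0.28 (edgeR adjusted p = 0.0019).

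In AM132 versus AM608, miR-26a-5p was higher by a log2 fold change of 0.20 (SE 0.0637, fold 1.15, edgeR adjusted p = 0.0445), in 8 of 8 AM132 libraries against the AM608 median. That call was close to the threshold: it was lost when any one of 21 of the 24 libraries was left out (edgeR adjusted p up to 0.212), the exceptions being AM132 6, AM132 8 and AM608 1. Scaled by library totals alone, the direction turned (−0.04, edgeR adjusted p = 0.688), while the median over all miRNAs moved by −0.25. As a share of all counts, miR-26a-5p averaged 3.49 ± 0.292% in AM132 and 3.60 ± 0.115% in AM608. RCD averaged 4.11 ± 0.526% (SD, n = 8 each). On this scale the mean of each obese group lay below that of RCD, which included RCD 3. The libraries overlapped, as the lowest RCD share (3.46%) was below the highest AM132 share (3.86%) and the highest AM608 share (3.78%). AM132 versus RCD showed no call at TMM scaling (−0.05, SE 0.0637, edgeR adjusted p = 0.57), and without RCD library 3 the value was −0.11 (edgeR adjusted p = 0.187). With library totals the log2 fold change was −0.23 (edgeR adjusted p = 0.00783). The hepatocyte marker sum was also higher in AM132, at a median of 544465 CPM against 393165 in AM608, and its part in the difference of miR-26a-5p was not tested.

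**Figure D1:**
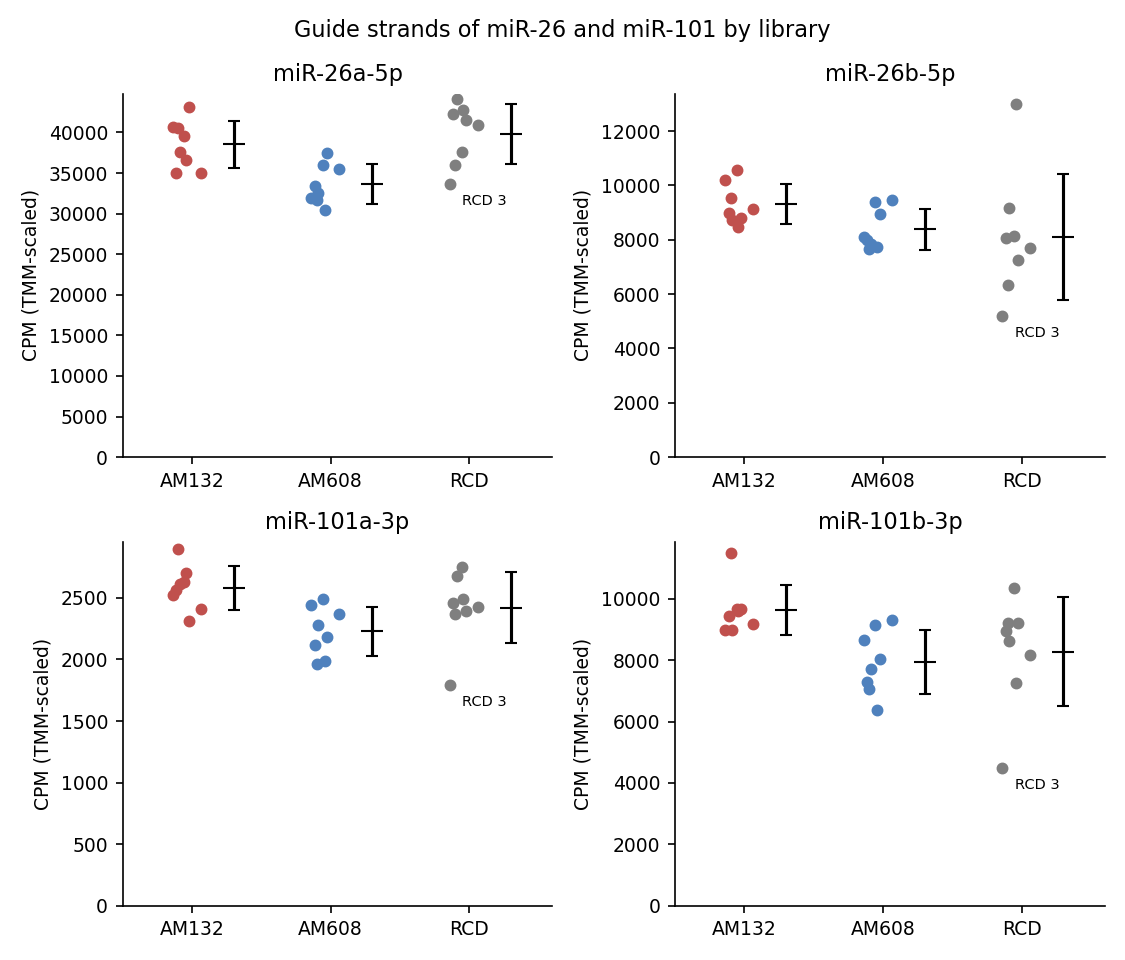
CPM of the 4 guide strands (vertical axes from 0, TMM-scaled) in each library of AM132, AM608 and RCD; points are libraries, and the black mark and bar beside them are the mean and SD of 8 libraries. miR-26a-5p averaged 38524, 33634 and 39829 CPM in AM132, AM608 and RCD, and RCD 3 is the lowest RCD library in all 4 panels.

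miR-26b-5p, with the same seed as miR-26a-5p, was not called in any comparison over all libraries. It spanned 8457 to 10582 CPM among AM132 libraries (median 9073), from 7664 to 9456 in AM608 (median 8043) and from 5177 to 12993 in RCD (median 7879). RCD spanned both other groups, from library 3 at the low end to library 8 at the high end. The log2 fold change was 0.15 in AM132 versus AM608 (SE 0.12, edgeR adjusted p = 0.5), with −0.09 under library totals (edgeR adjusted p = 0.697). Between AM608 and RCD it was 0.05 (SE 0.12, edgeR adjusted p = 0.779), with an interval of 2 SE on each side from −0.19 to 0.29. That value was −0.031 without RCD library 3 and 0.20 without RCD library 8 (edgeR adjusted p = 0.844 and 0.11). AM132 was not called relative to RCD either (0.20, edgeR adjusted p = 0.208), and the size depended on the outer RCD libraries: the value was 0.088 without library 3, the lowest (edgeR adjusted p = 0.562), and 0.31 without library 8, the highest (edgeR adjusted p = 0.00833).

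The ratio of miR-26a-5p to miR-26b-5p reads needs no size factor, since both are counted in the same library. AM132 libraries had a median ratio of 4.12 (3.74 to 4.90), AM608 libraries of 4.03 (3.76 to 4.19) and RCD libraries of 5.28 (3.29 to 6.49). The ratio was below the RCD median in 8 of 8 AM132 and 8 of 8 AM608 libraries. RCD was the most variable group: RCD 8, at 3.29, lay below every AM132 and AM608 library, and the other RCD libraries, from 4.61 up, lay above every AM608 library. AM132 1, at 4.90, was the only AM132 library among these higher values. RCD 3, the library with the neuronal markers, had the highest ratio, 6.49. As a ratio of members chosen with results known, it is given without a test.

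At TMM scaling miR-101a-3p and miR-101b-3p had their highest medians in AM132, without passing the test. As a share of all counts, miR-101a-3p instead had its lowest mean there, at 0.234% in AM132 libraries, 0.239% in AM608 libraries and 0.248% in RCD libraries. miR-101a-3p spanned 2309 to 2899 CPM among AM132 libraries (median 2587), from 1960 to 2488 in AM608 (median 2233) and from 1790 to 2752 in RCD (median 2442). Of the AM132 libraries, 6 of 8 lay above every AM608 library, and the groups overlapped. The log2 fold change of AM132 versus AM608 was 0.21 (SE 0.0734, edgeR adjusted p = 0.0611). miR-101a-3p passed in that comparison with DESeq2 (adjusted p = 0.0359), with a minimum mean of 10 CPM (edgeR adjusted p = 0.0171) and with only the 2 groups fitted (edgeR adjusted p = 0.0227), and turned to −0.03 with library totals (edgeR adjusted p = 0.787). It also passed without AM132 library 1 (0.23, edgeR adjusted p = 0.0454) and when RCD 3 was left out (0.19, edgeR adjusted p = 0.0452).

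miR-101b-3p spanned 8969 to 11498 CPM among AM132 libraries (median 9519), from 6367 to 9303 in AM608 (median 7874) and from 4487 to 10335 in RCD (median 8790). Of the AM132 libraries, 5 of 8 exceeded every AM608 library. The log2 fold change of AM132 versus AM608 was 0.28 (SE 0.116, edgeR adjusted p = 0.125). It passed without RCD library 3 (0.25, edgeR adjusted p = 0.0252) and with only the 2 groups fitted (0.25, edgeR adjusted p = 0.0191), and was 0.04 with library totals (edgeR adjusted p = 0.759). Relative to RCD, AM132 had log2 fold changes of 0.09 for miR-101a-3p and 0.22 for miR-101b-3p (edgeR adjusted p = 0.339 and 0.153). With RCD library 3 left out these were 0.012 and 0.097 (edgeR adjusted p = 0.912 and 0.358), and with library totals −0.087 and 0.056 (edgeR adjusted p = 0.323 and 0.60).

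Between AM608 and RCD the miR-101 guides were not called over all libraries, at −0.12 for miR-101a-3p (SE 0.0734, edgeR adjusted p = 0.243) and −0.06 for miR-101b-3p (SE 0.116, edgeR adjusted p = 0.724). Without RCD library 3, miR-101a-3p passed (−0.17, edgeR adjusted p = 0.0414) and miR-101b-3p was at −0.15 (edgeR adjusted p = 0.147). The ratio of miR-101b-3p to miR-101a-3p reads was 3.44 to 4.19 among AM132 libraries, 3.20 to 3.93 among AM608 libraries and 2.51 to 3.89 among RCD libraries, of which RCD 3 was lowest. The ratio spread less in the injected groups than in RCD, with SDs of 0.247 in AM132, 0.219 in AM608 and 0.493 in RCD.

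The passengers of miR-26 were counted in far smaller numbers. miR-26a-2-3p spanned 16.5 to 21 CPM among AM132 libraries (94 to 162 counts), from 13.7 to 20.2 CPM in AM608 (106 to 154 counts) and from 9.51 to 25.2 CPM in RCD (89 to 169 counts). All AM132 libraries lay above the AM608 median of 15.1 CPM, and the groups overlapped. The log2 fold change was 0.26 in AM132 versus AM608 (SE 0.145, edgeR adjusted p = 0.303) and −0.22 in AM608 versus RCD (SE 0.144, edgeR adjusted p = 0.26). Without RCD library 3 miR-26a-2-3p passed in AM608 versus RCD (−0.32, edgeR adjusted p = 0.0401). The log2 fold change of AM132 versus RCD was 0.03 (edgeR adjusted p = 0.874), and −0.094 without RCD library 3 (edgeR adjusted p = 0.559).

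miR-26b-3p spanned 9.46 to 15.0 CPM among AM132 libraries, from 8.97 to 12.8 CPM in AM608 and from 6.06 to 19.1 CPM in RCD. Its RCD extremes were libraries 3 and 8, the same as for its guide miR-26b-5p. It was not called in any comparison, with log2 fold changes of 0.08 in AM132 versus AM608 and −0.06 in AM608 versus RCD (edgeR adjusted p = 0.831 and 0.786), and of 0.01 in AM132 versus RCD (edgeR adjusted p = 0.963). Leaving out RCD library 3 gave −0.17 for AM608 and −0.12 for AM132 relative to RCD, and leaving out RCD library 8 gave 0.092 and 0.13 (edgeR adjusted p = 0.386, 0.542, 0.666 and 0.505).

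miR-26a-1-3p had 0 to 9 counts per AM132 library, 1 to 8 per AM608 library and 0 to 7 per RCD library. It failed the filter on low counts and was tested only when no filter was applied, where no comparison passed (edgeR adjusted p = 0.975, 0.848 and 0.698 in AM132 versus AM608, AM608 versus RCD and AM132 versus RCD). The libraries without a count were AM132 3 and RCD 1, where a count of 0 allows up to 0.552 and 0.451 CPM (3 counts, counting error only).

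Because miR-26a-5p is identical from both loci, the passengers are the only products that speak for one locus. Of the miR-26a passenger reads, Mir26a-1 gave 24 of 969 in AM132, 2.48% with an exact 95% binomial interval of 1.59 to 3.66%. In AM608 it gave 3.28% (2.30 to 4.54%) and in RCD 3.34% (2.34 to 4.62%). These intervals pool the reads of 8 libraries and cover counting error only. Single libraries ranged more widely, from 0 to 6.12% in AM132, from 0.794 to 6.02% in AM608 and from 0 to 6.03% in RCD, so the groups overlapped. The remaining reads came from Mir26a-2, 2988 in all 24 libraries. Passenger reads depend on strand decay and ligation as well as on transcription, so the shares describe reads and not the output of each locus.

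**Figure D2:**
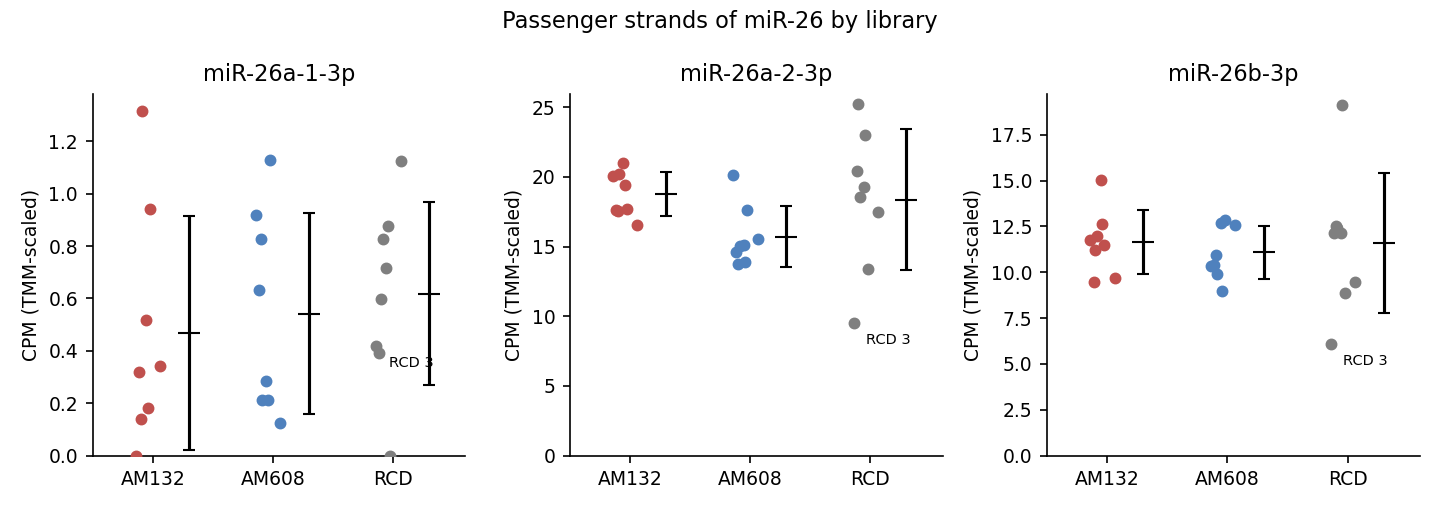
CPM of the 3 miR-26 passenger strands (vertical axes from 0, TMM-scaled) in each library of AM132, AM608 and RCD, with the mean and SD of 8 libraries beside the points. miR-26a-2-3p lies at 13.7 to 21 CPM in the injected groups, and miR-26a-1-3p stays below 1.32 CPM in every library.

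Guide reads exceeded passenger reads by a wide margin for miR-26a, summed over its 2 loci, and for miR-26b. The ratio of miR-26a-5p to the sum of its passengers had a median of 1986 over AM132, 2164 over AM608 and 2113 over RCD libraries. For miR-26b-5p over miR-26b-3p the medians were 809 over AM132, 760.1 over AM608 and 710.0 over RCD libraries. Both ratios overlapped between all groups, and RCD 3 had the highest value of its group in both. The opposite arms of miR-101, which are no members, had 69 counts for miR-101a-5p and 32 for miR-101b-5p in all 24 libraries together, against 412209 for miR-101a-3p and 1462663 for miR-101b-3p, so the arm bias was stronger at the miR-101 loci than at Mir26b in each group when counts were summed.

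**Figure D3:**
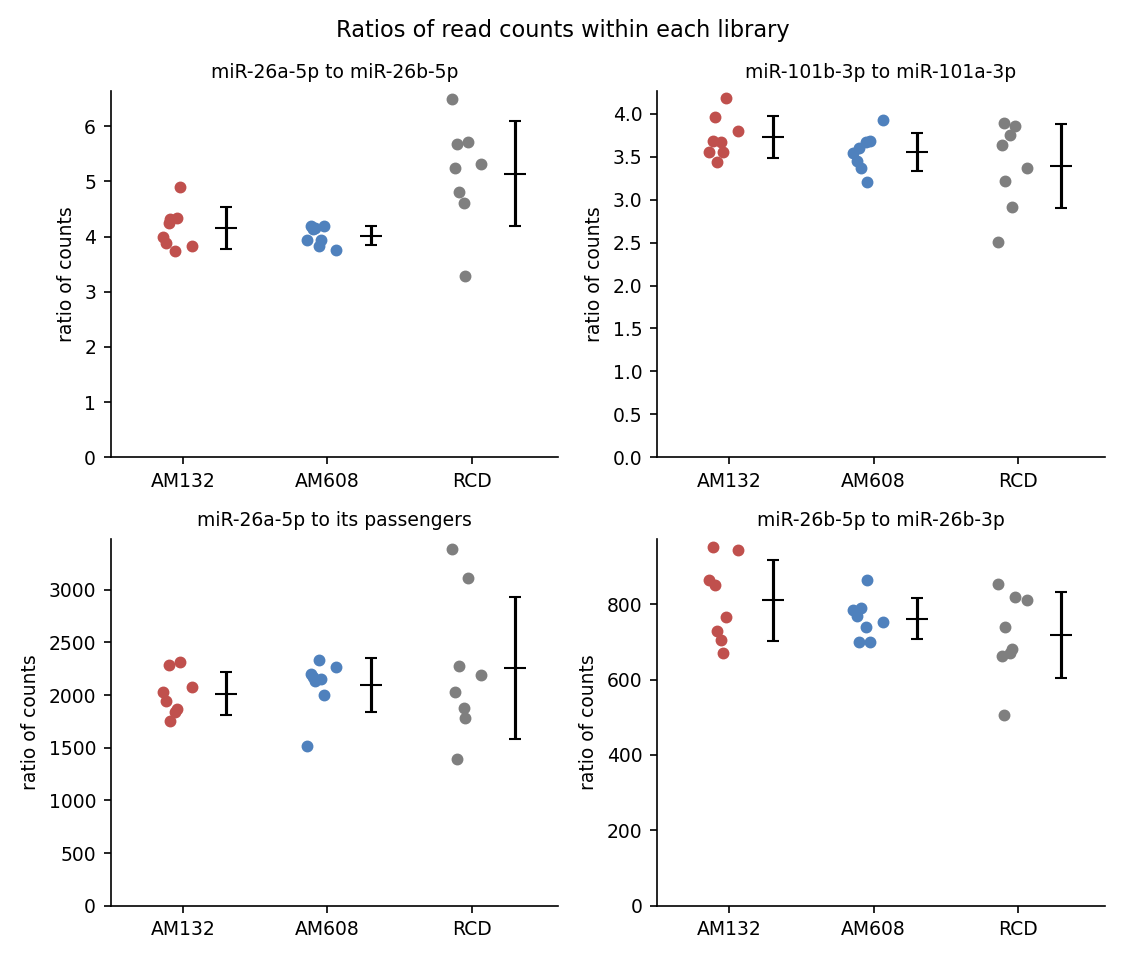
Ratios of read counts within each library (vertical axes from 0) for the miR-26 guides, the miR-101 guides and guide over passenger, with the mean and SD of 8 libraries per group beside the points. The ratio of miR-26a-5p to miR-26b-5p has a median of 5.28 in RCD and of 4.12 and 4.03 in AM132 and AM608, and its RCD range (3.29 to 6.49) covers both other groups. The guide to passenger ratios overlap in all groups as well.

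The number of called members is set here beside the share called over all tested miRNAs. In AM132 versus AM608, 1 of 6 tested members was called, miR-26a-5p, as higher, where 12.4% of all 421 miRNAs were called (4.04% as higher and 8.31% as lower). All 6 had a log2 fold change above 0, with a median of 0.20 beside 0.05 over all tested miRNAs, and with library totals only miR-26a-2-3p and miR-101b-3p stayed above 0. The median over all tested miRNAs was itself above 0, and members share libraries and in part hairpins, so the 6 directions are not independent. Without RCD library 3, 2 of 6 were called in AM132 versus AM608, miR-101a-3p and miR-101b-3p (15.2% of all 422 miRNAs tested), and miR-26a-5p was not (0.17, edgeR adjusted p = 0.0781). AM608 and RCD differed in 1 of 6, again miR-26a-5p, as lower, where 28.7% of all miRNAs were called (13.5% as higher and 15.2% as lower), and the median of the members was −0.09 beside −0.03. Without RCD library 3, 3 of 6 were called as lower (miR-26a-5p, miR-26a-2-3p and miR-101a-3p), with 31.5% of all 422 miRNAs tested there called (15.9% as lower). In AM132 versus RCD, edgeR called 0 of 6 members (34.2% of all miRNAs called, 15.4% as higher and 18.8% as lower), none had an unadjusted p under 0.05, and DESeq2 and limma voom also called none. When RCD 3 was left out the count there was again 0 of 6, where 31.3% of all miRNAs were called. No member had groups that did not overlap in any of the 3 comparisons, where the shares over all tested miRNAs were 6.65% for AM132 versus AM608, 9.26% for AM608 versus RCD and 8.79% for AM132 versus RCD. The comparisons share samples pairwise, so their values for a member are not independent.

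**Figure D4:**
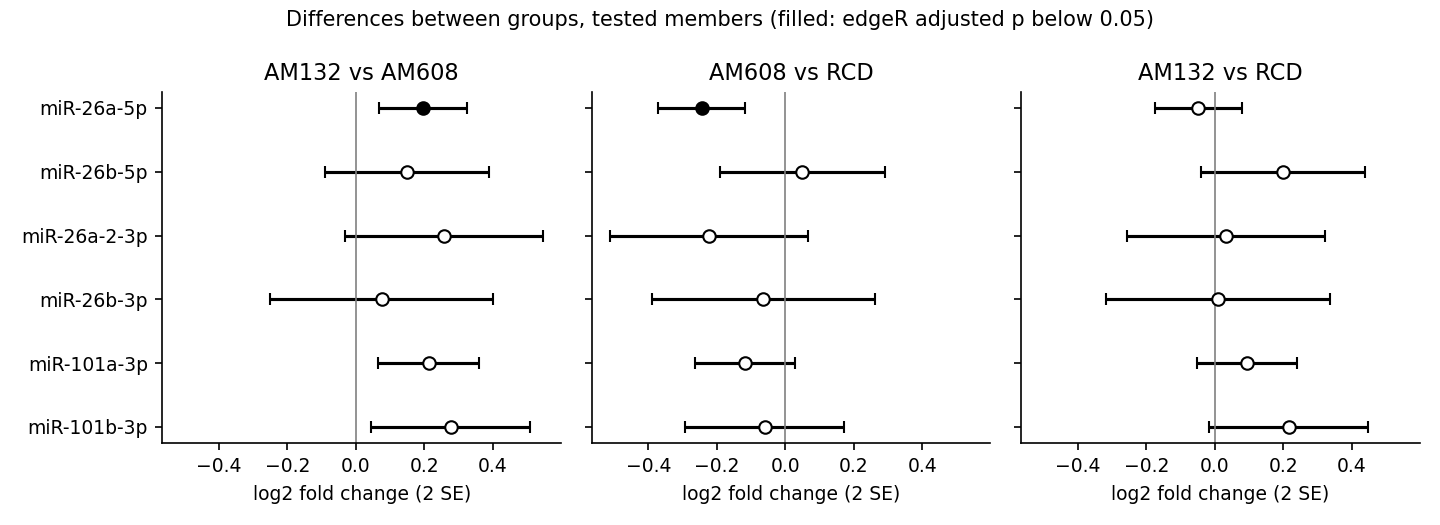
Log2 fold changes (horizontal axis) of the 6 tested members in the 3 comparisons, first-named group over second, with bars of 2 SE on each side; filled points have an edgeR adjusted p below 0.05. miR-26a-5p is filled at 0.20 in AM132 versus AM608 and at −0.24 in AM608 versus RCD, and all other points are open.

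The levels of related members went together from library to library within a group. With group means removed, the log2 CPM of miR-101a-3p and miR-101b-3p had a Pearson r of 0.85 and a Spearman rho of 0.70 over 24 libraries, and r was 0.69 without RCD library 3. The values were 0.66 and 0.66 for miR-26a-5p with miR-26b-5p, with r of 0.54 without RCD 3. For miR-26b-5p with its passenger miR-26b-3p, r was 0.81, and 0.71 without RCD 3. Spearman rho of this pair was lower, at 0.63 and 0.56, and RCD 8, the highest RCD library for both arms, was kept in. miR-26a-5p and its passenger miR-26a-2-3p, in contrast, had r of 0.33, and −0.02 without RCD 3 (rho 0.30 and 0.14). Pairs of a miR-26 member with a miR-101 guide had r from 0.40 (miR-26b-5p with miR-101b-3p) to 0.63 (miR-26a-2-3p with miR-101a-3p). Without RCD 3 such pairs ran from −0.10 (miR-26b-5p with miR-101b-3p) to 0.33 (miR-26b-5p with miR-101a-3p). All points share library, depth and composition, so these are descriptions only.

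The miRNAs most like each guide, by the same within-group Pearson r over 24 libraries, were mostly abundant liver miRNAs. For miR-26b-5p they were miR-29a-3p (r = 0.92), miR-30c-5p (0.90) and miR-194-5p (0.86). For miR-101b-3p they were miR-192-5p (0.93), miR-101a-3p (0.85) and miR-122-5p (0.83). For miR-101a-3p they were miR-192-5p (0.87), miR-101b-3p (0.85) and miR-203-3p (0.84). By Pearson r, miR-26a-5p had weaker companions, namely miR-1843a-3p (0.80), miR-30a-3p (0.74) and miR-194-2-3p (0.72). Without RCD library 3, the r of these pairs ran from 0.63 (miR-101b-3p with miR-122-5p) to 0.89 (miR-26b-5p with miR-29a-3p). Spearman rho over 24 libraries ran from 0.69 (miR-26a-5p with miR-194-2-3p) to 0.84 (miR-101b-3p with miR-192-5p), with 0.76 for miR-26b-5p with miR-29a-3p. The median r of each guide with all tested miRNAs was −0.07 to 0.01 over 24 libraries. The named pairs were picked for the highest r, so they exceed that median by selection.

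Other miRNAs reported as reduced in liver tumours or as restraining hepatocyte growth moved in both directions. Of 33 listed, 32 were tested; in AM132 versus AM608, 2 were higher and 5 lower (21.9% of the list, where 12.4% of all miRNAs were called), with a median log2 fold change of 0.06 beside 0.05 over all tested miRNAs. The 2 higher were miR-192-5p, a hepatocyte miRNA (0.58, edgeR adjusted p = 8.16e-04), and miR-99a-5p (0.36, edgeR adjusted p = 0.0142). The lower ones were led by miR-139-5p (−1.81, edgeR adjusted p = 1.65e-09), a larger change than that of any tested member. Also among them were miR-199a-3p and miR-199b-3p, with nearly equal values (3206 and 3205 CPM over the 24 libraries, −0.74 each). The same 2 were among the lower ones of AM132 versus RCD (−0.56 each), so they may not count as separate results. Between AM608 and RCD, 3 were higher in AM608, miR-152-3p by 0.60 first among them, and 2 lower, miR-145a-5p by −0.65 and miR-29a-3p by −0.35 (edgeR adjusted p = 1.16e-06, 0.00145 and 0.0361). These 5 are 15.6% of the list, where 28.7% of all miRNAs were called. In AM132 versus RCD, 7 were higher and 4 lower (34.4% of the list, beside 34.2% of all miRNAs), with a median of 0.02 beside 0.03 over all tested miRNAs. With RCD 3 left out the list had 5 higher and 5 lower in AM132 versus AM608 (31.2% of the list, beside 15.2% of all miRNAs). It had 3 and 3 in AM608 versus RCD (18.8% beside 31.5%), and again 7 and 4 in AM132 versus RCD (34.4% beside 31.3%).

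miRNAs reported as raised in liver tumours or as promoting growth were 23 tested of 25 listed. In AM132 versus AM608 only miR-25-3p of these was called, as lower (−0.67, edgeR adjusted p = 1.15e-06; 4.35% of the list, beside 12.4% of all miRNAs). AM608 had 3 of them higher than RCD, among them miR-221-3p and miR-222-3p (0.35 and 0.42, edgeR adjusted p = 0.0226 and 0.00723), and 2 lower, among them miR-21a-5p (−0.68, edgeR adjusted p = 3.18e-05). Called miRNAs made up 21.7% of the list, beside 28.7% of all miRNAs. The median of the list was −0.01 there, beside −0.03 over all tested miRNAs. In AM132 versus RCD, 3 were higher and 4 lower (30.4% of the list, beside 34.2% of all miRNAs), with a median of −0.12 beside 0.03. When RCD 3 was left out, 5 were higher and 3 lower in AM608 versus RCD (34.8% of the list, beside 31.5% of all miRNAs). In AM132 versus RCD 2 were then higher and 6 lower (34.8% beside 31.3%).

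**Figure D5:**
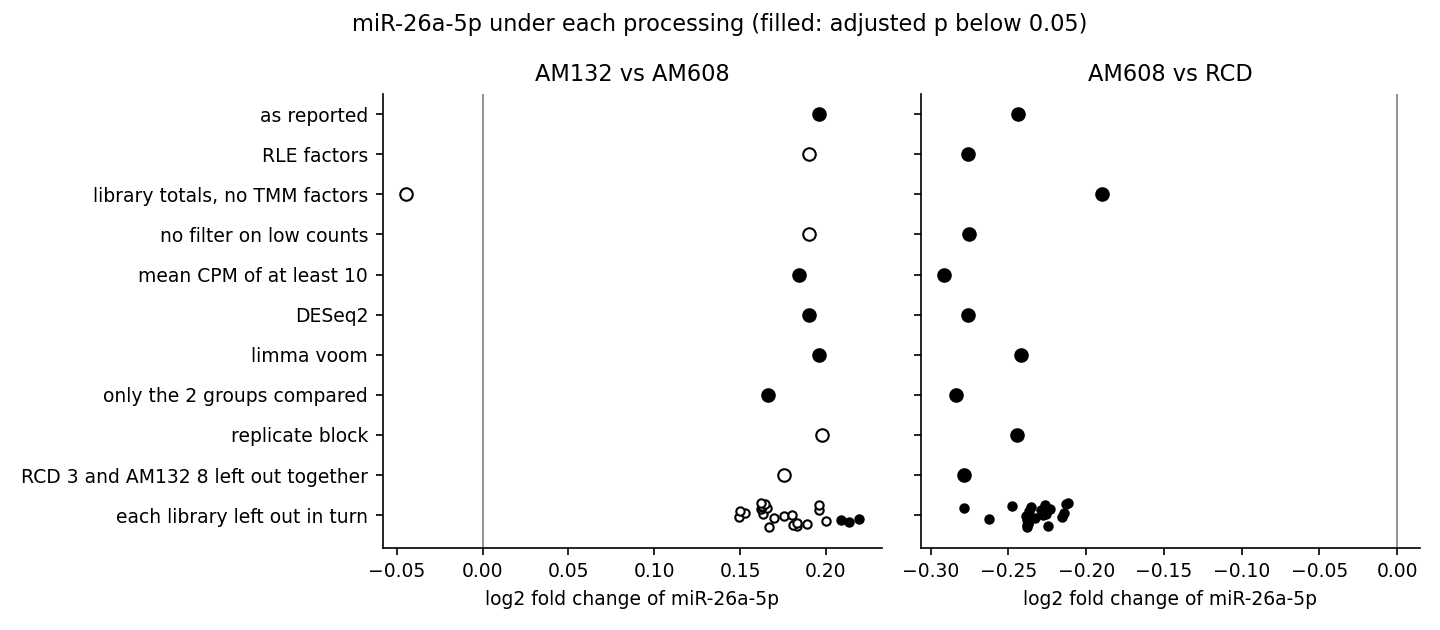
Log2 fold change of miR-26a-5p (horizontal axis, log2 scale) under each processing alternative (rows), for AM132 versus AM608 and AM608 versus RCD; filled points have an adjusted p below 0.05, and the bottom row holds 24 points, 1 for each library left out. In AM608 versus RCD the values run from −0.29 to −0.19 and are all filled, whereas in AM132 versus AM608 most points are open and library totals give −0.04.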

How the data were processed

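The values are raw read counts per mature miRNA as deposited by the authors. RNA came from a miRNeasy Mini Kit extraction, and 300 ng was made into libraries with the NEBNext small RNA kit and sequenced on a NextSeq 500, per the labels' protocols. FastQC is named in the submitters' processing notes. The aligner, trimming, genome build and how reads of near-identical miRNAs were assigned were not given in the sources used here. Each column name gave the group and number of its sample. All 84 pairs of libraries of the same group differed beyond counting noise (chi-square over degrees of freedom at least 25.7).

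The whole table was fitted with edgeR 4.0.16 in R 4.3.3 (robust quasi-likelihood, TMM, filterByExpr, group as the only term, all 24 libraries). Of 1908 names, 584 had no count and 421 were tested; p-values were Benjamini-Hochberg adjusted over the 421, with a threshold of 0.05. CPM is the count over the TMM-scaled sum of tested counts. An SE is the absolute log2 fold change over the square root of F. log2 CPM for correlations used a prior count of 2. Fits were tested on simulated data, with 3 simulations per comparison. Of true log2 changes of 0.5, 44.4 to 51.8% were called across the comparisons, and of changes of 1, 85.2 to 86.7%. Unchanged miRNAs were called in 1.38 to 2.57%. More miRNAs were changed in each simulation than were called in any comparison of the data, and no library was made to stand apart. The rates average over all abundances, so they need not hold for the members. Changes below 0.5, such as those of the members, were not simulated, so a member not called may still differ. Alternatives were RLE factors, library totals, no filter, mean CPM of at least 10, DESeq2 1.42.0, limma voom 3.58.1, 2 groups only, a replicate block, each library left out, and RCD 3 with AM132 8 left out.

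All 7 members are named. Others named are the other miR-101 products, the 3 miRNAs most correlated with each guide, and called members of the growth lists with the smallest p (at most 3 per direction). miR-199a-3p is named as well, for its likeness to miR-199b-3p. The growth lists (33 and 25 names) and marker lists were written from general knowledge; members and lists were chosen with earlier results of these data known. Ratios and correlations were given no test. Host genes come from GENCODE M21 and sequences from RefSeq, both on GRCm38. The tRNA fragment table was not used.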

Additional observations from a re-analysis of the deposited data

Results flagged for a closer look

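In 21 sets of 8 member values (7 members in 3 groups), 2 had a library far from the others, by the gap to the nearest library over the whole range, with a critical value of 0.526; chance gives about 1 in 20. miR-101a-3p in RCD library 3 was 1790 CPM against 2365 in the next lowest RCD library (0.598 of the range). miR-101b-3p in AM132 library 5 was 11498 CPM against 9671 in the next highest AM132 library (0.722 of the range). Both values are TMM-scaled, and the TMM factor was the highest of all libraries in RCD 3 (1.34) and the lowest in AM132 5 (0.827). The rule was not applied to shares of counts. By share, miR-101a-3p was lower in RCD 1 (15926 of 7360821 counts) than in RCD 3 (17123 of 7170131). For miR-101b-3p, AM132 5 had 83035 of 8734721 counts and AM132 4 had 74467 of 7912189.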

How the results depend on the processing

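In AM608 versus RCD, miR-26a-5p kept its direction and its call in all 33 alternatives run, between −0.29 and −0.19 on the log2 scale. In AM132 versus AM608 its call depended on the processing, and the number of called members, 1 of 6 as reported, was 0 under RLE factors, the replicate block, library totals and the unfiltered table. It was 2 at a mean CPM of at least 10 and with DESeq2, 3 with only the 2 groups fitted, and 0 to 2 when single libraries were dropped. Calls over all miRNAs moved too: they ran from 40 to 91 across the 9 alternatives that were not single-library omissions. When single libraries were dropped they ran from 44 to 64. In AM608 versus RCD the number of called members, 1 as reported, was 2 at a mean CPM of at least 10, 3 without RCD 3 and AM132 8, and 1 to 3 with each library left out. There 121 of all miRNAs were called as reported, 89 to 153 across the same 9 alternatives and 112 to 133 with each library left out. In AM132 versus RCD the number of called members was 0 as reported, 1 with library totals and 0 to 1 with each library left out. Over all miRNAs it was 94 to 159 across the 9 alternatives and 127 to 154 with each library left out. Calls over all miRNAs numbered 52 in AM132 versus AM608, with 91 under library totals (8 higher and 83 lower, against 17 and 35) and 87 with only the 2 groups fitted. In AM132 versus RCD they numbered 144, with 94 at a mean CPM of at least 10, where fewer miRNAs (259) were tested, and under library totals the split was 27 higher and 105 lower, against 65 and 79, with a shift of −0.19 in the median over all miRNAs.

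Some log2 fold changes turned, among them the called one of miR-26a-5p in AM132 versus AM608, and the cause was not tested. With library totals, AM132 versus AM608 gave −0.045 for miR-26a-5p, −0.086 for miR-26b-5p, −0.16 for miR-26b-3p and −0.031 for miR-101a-3p. AM608 versus RCD gave 0.018 for miR-101b-3p, and AM132 versus RCD gave −0.14, −0.17 and −0.087 for miR-26a-2-3p, miR-26b-3p and miR-101a-3p. In AM132 versus RCD, miR-26a-2-3p was −0.00071 with RLE factors, −0.0059 without a filter, −0.023 at a mean CPM of at least 10 and −0.10 without RCD 3 and AM132 8. miR-26b-3p there was −0.025 with RLE factors, −0.033 without a filter, −0.052 at a mean CPM of at least 10, −0.020 with DESeq2, −0.020 with only the 2 groups fitted and −0.14 without RCD 3 and AM132 8. In AM608 versus RCD, miR-26b-5p was −0.0015 at a mean CPM of at least 10 and −0.030 without RCD 3 and AM132 8. With each library left out, the ranges that crossed 0 were −0.12 to 0.13 for miR-26b-3p and −0.094 to 0.095 for miR-26a-2-3p in AM132 versus RCD. In AM608 versus RCD they were −0.031 to 0.20 for miR-26b-5p, −0.17 to 0.092 for miR-26b-3p and −0.15 to 0.011 for miR-101b-3p.

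The numbers in the sample titles are not stated to pair the samples, and a check did not show a pairing, though it cannot exclude one. Same-numbered libraries had deviations from their group means that correlated at −0.42 to 0.40, and 4 of 24 correlated best with their own number. With the replicate block, miR-26a-5p was 0.20 in AM132 versus AM608 (edgeR adjusted p = 0.0733) and −0.24 in AM608 versus RCD (edgeR adjusted p = 0.0131), and no other member changed its call. Depth limits miR-26a-1-3p, with at most 9 counts in a library.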
